A study of Mus musculus with 12 samples.

Results

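The genes described here are 10 Wnt target and crypt stem cell genes of the mouse intestine, Sp5, Sox9, Ephb2, Ephb3, Myc, Axin2, Lgr5, Olfm4, Slc12a2 and Cdk6, chosen by name. All 10 had counting windows for RNA polymerase II (Pol II) in the deposited files, and 4 of them, Sp5, Sox9, Myc and Axin2, were among the 6429 genes of the authors' deposited tables of comparisons. Pol II occupancy had been measured by chromatin immunoprecipitation and sequencing (ChIP-seq) in adult duodenal epithelium, in 3 groups of 3 libraries: crypt of wild-type (WT) mice, their villus, and the villus of animals labelled as double knockouts (DKO) of Hnf4a and Hnf4g. Each group also had 1 input library, not used here. WT mice had received the oil vehicle, which was corn oil with ethanol. The labelled-DKO mice had received tamoxifen at 50 mg per kg per day for 2 days and were killed 1 day later. Tissue of the mutants stood in 3 mM EDTA for 25 minutes and that of WT mice for 35 minutes, so genotype, drug and EDTA time cannot be told apart. Crypts were separated from villi as the fraction that passed a 70 µm filter. The driver of the recombinase, the deleted exons and any pooling of mice are not given in the sources used here.

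Wnt ligands from the crypt base stabilise β-catenin, which enters the nucleus and binds factors of the TCF/LEF family at target genes. In the intestine this signalling keeps stem and progenitor cells dividing, and it declines as cells move up onto the villus. Among its targets are regulators that feed back on the pathway (Axin2), transcription factors (Sp5, Sox9, Myc), a receptor that marks the stem cells (Lgr5) and receptors that position cells in the crypt (Ephb2, Ephb3). HNF4A and HNF4G are transcription factors that drive the absorptive enterocyte programme of the villus.

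Promoter sequences are shown for Sp5 and Axin2, because these are the genes of the 4 with comparisons for which the RefSeq promoter table (GRCm38.p6) holds an entry. The promoters of 6 of the 10 genes were searched. Sox9, Myc and Lgr5 had no entry, and the promoter of Slc12a2 was left out of the search. Each sequence runs 5′ to 3′ from 250 bases before to 50 bases after the annotated start, and capitals mark the motifs found on either strand. The motifs searched were the TCF/LEF core (CTTTGAA or CTTTGAT or CTTTGTA or CTTTGTT), the TATA box (TATAAA or TATATA), the GC box (GGGCGG), the CCAAT box and an HNF4 core (CAAAGTC). The HNF4 core shares 5 letters with the reverse strand of the TCF/LEF core.
Sp5, chr2:70474673-70474972, plus strand: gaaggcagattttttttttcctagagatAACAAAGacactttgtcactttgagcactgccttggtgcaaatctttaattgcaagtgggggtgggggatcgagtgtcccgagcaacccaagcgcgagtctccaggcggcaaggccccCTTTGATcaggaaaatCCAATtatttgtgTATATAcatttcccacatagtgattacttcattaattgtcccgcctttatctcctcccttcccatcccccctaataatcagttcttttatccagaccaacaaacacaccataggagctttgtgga
Axin2, chr11:108920099-108920398, plus strand: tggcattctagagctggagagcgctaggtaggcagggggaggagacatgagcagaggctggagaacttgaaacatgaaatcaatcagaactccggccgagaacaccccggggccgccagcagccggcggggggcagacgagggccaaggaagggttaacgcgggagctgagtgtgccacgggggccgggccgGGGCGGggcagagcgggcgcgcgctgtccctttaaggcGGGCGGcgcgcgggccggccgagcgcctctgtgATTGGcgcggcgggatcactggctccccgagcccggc

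The Sp5 promoter held 2 TCF/LEF cores, one read on the reverse strand from position -222 relative to the start and CTTTGAT from position -104. It was the only one of the 6 member promoters searched with such a core. Of all 32851 promoters of the same length 16.9% hold such a core, so 1 of 6 is about the share over all promoters. CTTTGAT alone is held by 3.73%. Sp5 also had a CCAAT box at -88 and a TATATA at -75. The Axin2 promoter held 2 GC boxes, at -58 and -20, and a reverse CCAAT box at 14. These promoters differed in composition, with 45% G and C and 6 CpG at Sp5 and 70% and 31 CpG at Axin2, against medians of 52.7% and 7 over all promoters. The HNF4 core was found in none of the 6 member promoters searched, and 4.44% of all promoters hold it. Among the other promoters, those of Ephb2 and Olfm4 held a CCAAT box, that of Ephb3 held 2 GC boxes, and that of Cdk6 a TATA box, TATAAA, at -103. Of all promoters of this length 17.1% hold a TATA box, 35.7% a GC box and 37.4% a CCAAT box by these letters. A match of letters is not a bound site.

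In the authors' deposited tables values above 0 stand for more signal in WT villus, by the tables' names. The deposited standard errors bear on these signs, because counting error is larger where a group's mean is small. Group means rebuilt with the signs as named accounted for 90.1% of the squares of the difference in squared standard error between the tables, and with the sign of the second table reversed for 0%. With the sign of the first table alone reversed they accounted for 51.6%, and with both reversed for 1.54%, so this separates the signs of the second table more than those of the first. Of 14 enterocyte genes 13 were tested, and all 13 were called higher in WT villus than in WT crypt, as were 18.6% of all genes. The targeted genes were higher in the villi labelled DKO in the authors' deposited table, at -0.54 ± 0.14 (SE) for Hnf4a and -1.45 ± 0.22 for Hnf4g, with DESeq2 adjusted p-values of 4.84e-04 and 7.81e-10. Which exons were deleted is not known here, so signal over these genes does not check the deletion, and the third group is called labelled-DKO throughout. Values per library, depth per library and the window counted in the tables were not analysed here. In place of values per sample, the mean of each group was rebuilt from the deposited mean signal and both fold changes, assuming groups of equal size. The deposited mean signal is a count divided by size factors and is not per length, so levels are compared within a gene only.

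Between WT villus and WT crypt, all 4 measured genes differed, and they did not move as 1 group. Myc, Sox9 and Axin2 had more Pol II in crypt, by 2.09-fold, 1.60-fold and 1.40-fold. Sp5 had more Pol II in villus, by 2.58-fold. Thus 4 of 4 genes were called at an adjusted p under 0.05, where 37.4% of all 6429 genes were. The 3 genes higher in crypt stand beside a background of 18.8% in that direction, and the 1 gene higher in villus beside 18.6%. The median log2 fold change of the 4 genes was -0.58, and that of all genes was -0.04.

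Sp5 encodes a zinc finger transcription factor of the Sp1 family that Wnt signalling induces. Its rebuilt mean signal was 51.3 normalised counts in WT crypt, 132 in WT villus and 19.7 in labelled-DKO villus. WT villus was thus the highest group and labelled-DKO villus the lowest. In the authors' deposited table the log2 fold change of WT villus over crypt was 1.37 ± 0.25, with a 95% interval of 0.87 to 1.87 and a DESeq2 adjusted p of 9.21e-07. That is the 91st largest increase among the 6429 genes. The mean signal of Sp5, 67.8, lay at the 14.9 percentile of all genes, and its standard error at the 93.0 percentile.

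Myc encodes a transcription factor that promotes growth and division. Its rebuilt means were 89.6 normalised counts in WT crypt, 42.8 in WT villus and 68.1 in labelled-DKO villus, with WT villus the lowest. The authors' deposited table gave a log2 fold change of villus over crypt of -1.06 ± 0.18, with a DESeq2 adjusted p of 2.93e-08. It was the 48th lowest value of the 6429.

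Sox9 encodes a transcription factor of crypt progenitors and of Paneth cells, the antimicrobial cells of the crypt base. Its rebuilt means were 92.3 normalised counts in WT crypt, 57.7 in WT villus and 48.3 in labelled-DKO villus. Crypt was the highest group, and the villus groups lay closer to each other than to crypt. The authors' deposited log2 fold change of villus over crypt was -0.68 ± 0.18, with a DESeq2 adjusted p of 1.11e-03.

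Axin2 encodes a scaffold of the complex that marks β-catenin for destruction, and so restrains the signal that induces it. Its rebuilt means were 292 normalised counts in WT crypt, 208 in WT villus and 271 in labelled-DKO villus. WT villus was the lowest group, as at Myc. The log2 fold change of villus over crypt was -0.49 ± 0.17 in the authors' deposited table, with a DESeq2 adjusted p of 0.0167. Sox9 and Axin2 did not pass a test against changes up to 0.5, both with an adjusted p of 1, while Sp5 and Myc did, with adjusted p-values of 0.0200 and 0.0375.

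**Figure D1:**
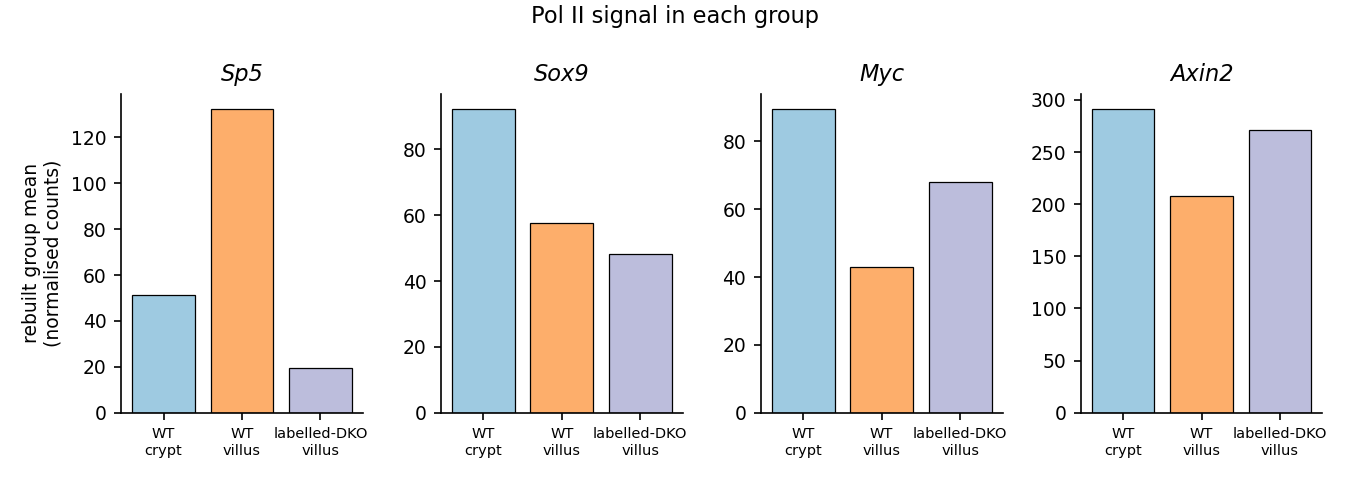
Rebuilt mean Pol II signal (normalised counts, linear axis from 0, own scale for each gene) at Sp5, Sox9, Myc and Axin2 in WT crypt, WT villus and labelled-DKO villus. Bars are group means rebuilt from the deposited values, with no error per group. Sp5 peaks in WT villus at 132, and the other 3 genes are highest in WT crypt.

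The spread among these genes was larger than their errors. Sp5 exceeded Axin2, the nearest of the other 3, by 1.86 on the log2 scale of villus over crypt, with a 95% interval of 1.25 to 2.46 if the errors of the genes are independent. Myc lay below Axin2 by a difference of -0.58, with an interval of -1.06 to -0.09. These intervals between genes are not adjusted for the number of pairs compared. Sox9 was not separated from either, with a difference from Myc of 0.39 (-0.11 to 0.88) and from Axin2 of -0.19 (-0.68 to 0.31).

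The comparison of both kinds of villus was made, per the series' design, to find where Pol II recruitment depends on HNF4. It shares the WT villus libraries with the comparison above. Sp5 signal was 6.74-fold higher in WT villus than in labelled-DKO villus, and Myc signal was 1.59-fold higher in labelled-DKO villus. Sox9 and Axin2 did not pass the threshold. So 2 of 4 genes were called, 1 in each direction, where 51.9% of all genes were called, 22.4% higher in WT villus and 29.5% higher in labelled-DKO villus. The 4 genes had a median log2 fold change of -0.06, beside -0.08 for all genes.

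At Sp5 the authors' deposited value, a log2 ratio of WT to labelled-DKO villus, was 2.75 ± 0.27, with a 95% interval of 2.22 to 3.29 and a DESeq2 adjusted p of 1.30e-22. It was the 27th highest of the 6429 genes. At Myc the authors' deposited value was -0.67 ± 0.18, with an adjusted p of 5.36e-04 from DESeq2, and it did not pass against changes up to 0.5. At Axin2 it was -0.38 ± 0.17 in the authors' deposited table, with a 95% interval of -0.72 to -0.04 and a DESeq2 adjusted p of 0.0531. With genes of a mean signal of at least 100 alone, Axin2 reached an adjusted p of 0.0458, and over 7 alternatives its adjusted p ran from 0.0458 to 1. At Sox9 the authors' deposited value was 0.26 ± 0.19, with a 95% interval of -0.11 to 0.63 and a DESeq2 adjusted p of 0.251. That interval holds changes of up to 1.54-fold in favour of WT villus.

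In this comparison Sp5 exceeded Sox9 by 2.50 on the log2 scale, with an interval of 1.85 to 3.14. Sox9 in turn exceeded Myc by 0.93 (0.42 to 1.43) and Axin2 by 0.64 (0.14 to 1.14). These intervals too assume independent errors of the genes and are not adjusted for the number of pairs compared. Myc and Axin2 were not separated, with a difference of -0.29 and an interval of -0.77 to 0.20.

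The third pair of groups, labelled-DKO villus and WT crypt, was compared through the difference of both deposited log2 fold changes, with the largest standard error it can have. Sp5 and Sox9 had less Pol II in labelled-DKO villus than in WT crypt. Myc and Axin2 did not pass. These 2 of 4 genes stand beside a background of 13.6% of all genes called in either direction 6.41% higher in labelled-DKO villus and 7.19% higher in WT crypt. That background rests on the largest standard error: it is 874 of 6429 genes, and with a standard error rebuilt without the shared WT villus part it was 1923, with the same 2 members called.

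Sp5 was 2.61-fold lower in labelled-DKO villus than in crypt, with a log2 difference of -1.38 ± 0.37 and a Benjamini-Hochberg adjusted p over all genes, from a normal test, of 0.00303. Its value was the 39th lowest of all genes. Sox9 was 1.91-fold lower, at -0.93 ± 0.26, with an adjusted p from the same normal test of 0.00505. Neither passed against changes up to 0.5, with adjusted p-values of 0.632 and 1. Myc differed by -0.40 ± 0.25 with an interval of -0.88 to 0.09, and Axin2 by -0.11 ± 0.25 with an interval of -0.59 to 0.37. At Sp5 the order was WT villus, WT crypt, labelled-DKO villus, with every step called. At Sox9 it was WT crypt above both villus groups, which were not separated. At Myc, WT crypt and labelled-DKO villus were not separated, and both lay above WT villus. The rebuilt means of Axin2 had the same order as those of Myc, and the single step called was that between WT crypt and WT villus.

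**Figure D2:**
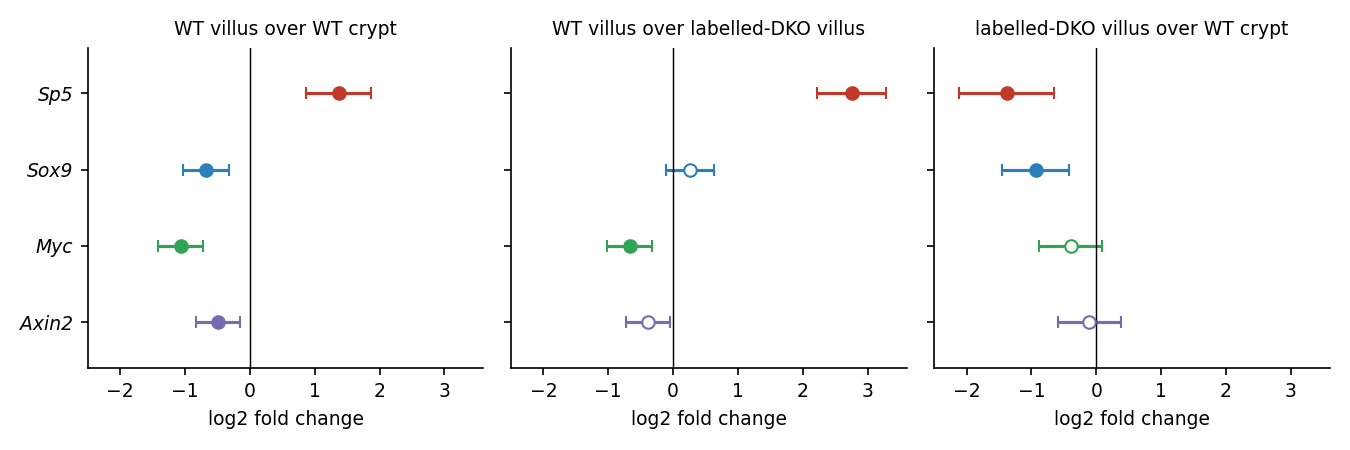
Log2 fold changes of Pol II signal at Sp5, Sox9, Myc and Axin2 for the 3 pairs of groups, with 95% intervals. Filled points passed an adjusted p of 0.05 and open points did not. Sp5 lies right of 0 in both panels with WT villus in the numerator and left of 0 in labelled-DKO villus over WT crypt.

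Markers of other cells and of stress moved with these groups. The 13 enterocyte genes were all higher in WT villus than crypt (median 1.45) and all lower in labelled-DKO villus than in WT villus (median 2.38), the directions in which Sp5 moved. Both proliferation genes tested of 15, Pcna and Mcm7, had the directions of Myc, with medians of -0.85 and -0.58. Of 13 goblet and Paneth cell genes 8 were tested, of which 4 were higher in villus and 2 in crypt. Between the genotypes 3 were higher in labelled-DKO villus, 0 in WT villus and 5 were not called by DESeq2. The 3 stand beside the 29.5% of all genes. Of 8 immediate early and heat shock genes, listed as signs of stress (Jun is also in the list of Wnt targets below), 5 were tested, and all 5 were higher in WT villus than crypt, with a median of 1.47 and Fos the highest at 2.29 ± 0.24. Between the genotypes Fos, Jun, Junb and Atf3 were higher in WT villus, also the direction of Sp5, and Egr1 was higher in labelled-DKO villus, at -1.18 ± 0.22 in the authors' deposited table. The part of these marker groups in the results for the 4 genes was not tested. Of 9 immune genes 2 were tested and 1, Cd74, was called, higher in WT villus in both tables. The other, Gzma, was called in neither. Of 5 enteroendocrine and tuft cell genes 1, Chga, was tested, and it was called in neither. The 8 mesenchyme and 3 endothelium genes listed were not among the 6429. In tissue fractions like these, fewer cells of a type and less Pol II per cell cannot be told apart.

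No window of another gene overlapped those of the 4 genes. The nearest windows to Sp5 were those of Gad1os at 12.2 kb and Myo3b at 46.1 kb. Those nearest to Myc belonged to Pvt1, at 48.0 kb, to Sox9 Gm11681, at 4.98 kb, and to Axin2 Cep112, at 60.1 kb. None of these neighbours was in the authors' deposited tables, so their Pol II cannot be set beside that of the 4 genes.

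The rest of the pathway was read from a list of 87 Wnt components, of which 30 were in the authors' deposited tables. Between villus and crypt 3 were higher in WT villus, 7 in WT crypt and 20 were not called, with a median of -0.11. Over all genes 18.6% were called higher in WT villus and 18.8% in WT crypt, 37.4% in all, and the median was -0.04. Between the genotypes 4 were higher in WT villus, 15 in labelled-DKO villus and 11 were not called, with a median of -0.29. The shares over all genes were 22.4% and 29.5%, 51.9% in all, and the median was -0.08. Values given below for genes of the lists passed a DESeq2 adjusted p under 0.05 unless stated.

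Lgr4, a receptor for R-spondins and the relative of Lgr5 that was measured, had the directions of Myc in the authors' deposited tables, with -0.70 ± 0.16 for villus over crypt and -0.999 ± 0.16 between the genotypes. Their DESeq2 adjusted p-values were 8.89e-05 and 3.78e-09. The ligand gene Wnt4 and the receptor gene Fzd1 had more signal in the WT villus of that pair, at 0.59 ± 0.18 and 0.76 ± 0.27 in the authors' deposited table, and the co-receptor gene Lrp5 was lower there, at -0.56 ± 0.11. Of the kinases that phosphorylate β-catenin, Gsk3b and Csnk1a1 were higher in labelled-DKO villus, at -0.59 ± 0.13 and -0.58 ± 0.18 in the authors' deposited table. Their relatives Gsk3a and Csnk1d, named here after their values were seen, were not called, at 0.01 ± 0.13 and 0.16 ± 0.10. Pygo2, a β-catenin coactivator, was also higher in labelled-DKO villus, at -1.002 ± 0.19. So were the corepressors Ctbp1 and Ctbp2, at -0.51 ± 0.07 and -0.71 ± 0.05. Of the Groucho family of nuclear cofactors, Tle3 and Tle5 were higher in WT villus than crypt, at 0.64 ± 0.11 and 0.53 ± 0.15 in the authors' deposited table. Tle1 and Tle4, named here after their values were seen, were higher in crypt, at -0.25 ± 0.09 and -0.46 ± 0.12, so the 4 family members tested were split.

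**Figure D3:**
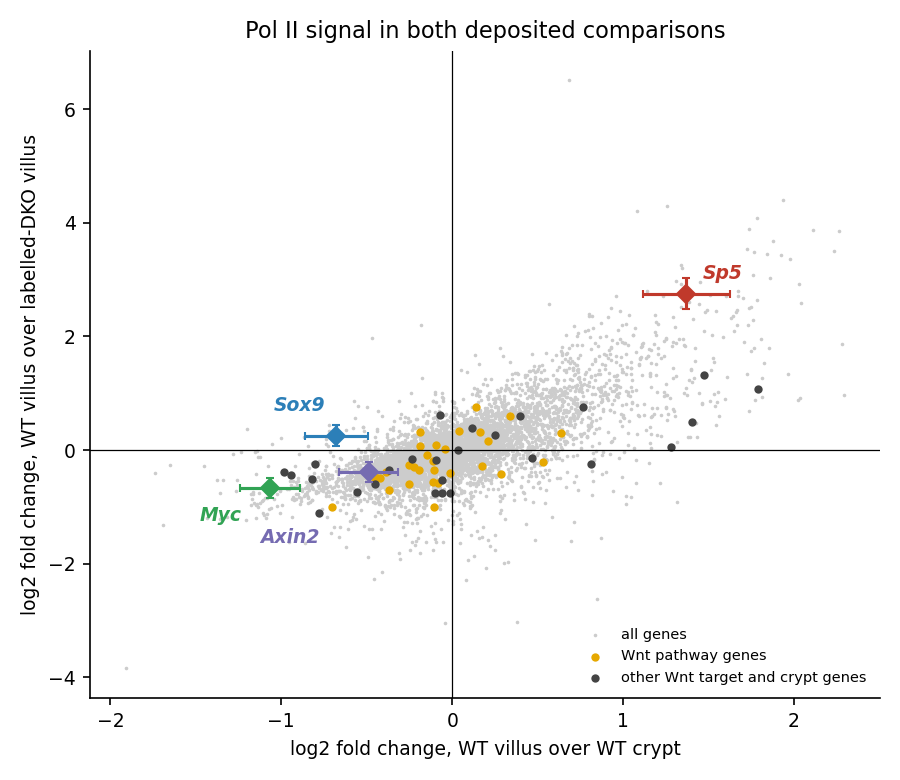
Each point is a gene, placed by its deposited log2 fold change of WT villus over WT crypt (x) and of WT villus over labelled-DKO villus (y), comparisons that share the WT villus libraries. Light grey points are the 6429 genes. Amber points are the Wnt pathway genes, and dark grey points are the list of other Wnt target and crypt genes. Diamonds with bars of 1 standard error are the 4 members. Sp5 sits at 1.37 and 2.75, away from Sox9, Myc and Axin2, which lie left of 0.

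A further list held 53 other Wnt targets, crypt genes and partners of the 10 genes, of which 26 were in the authors' deposited tables. Between villus and crypt 7 were higher in WT villus, 8 in WT crypt and 11 were not called. Between the genotypes 6 were higher in WT villus, 11 in labelled-DKO villus and 9 were not called. The medians were -0.06 and -0.21. Over all genes the shares called, in the same order, were 18.6% and 18.8% between villus and crypt and 22.4% and 29.5% between the genotypes.

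Max, which encodes the partner that MYC needs to bind DNA, ran opposite to Myc in the authors' deposited tables, at 0.77 ± 0.06 and 0.76 ± 0.06. For Cdk6, a cyclin-dependent kinase without a deposited comparison, the cyclin partner gene Ccnd2 was lower in WT villus than in either other group, at -0.78 ± 0.13 and -1.11 ± 0.13 in the authors' deposited tables. Its sister kinase gene Cdk4 was higher in crypt than in villus, at -0.80 ± 0.22. The crypt genes Rgmb (-0.99 ± 0.12), Lrig1 (-0.94 ± 0.09) and Cd24a (-0.82 ± 0.18) were also higher in crypt in the authors' deposited table, and in labelled-DKO villus all 3 exceeded WT villus, with values of -0.39, -0.44 and -0.50. Hopx, a crypt stem cell gene named here after its values were seen, went the other way between the genotypes, at 0.63 ± 0.15 with a DESeq2 adjusted p of 1.22e-04, and was not called between villus and crypt, at -0.07 ± 0.15. Besides Max, the listed genes called with the direction of Sp5 between villus and crypt were Klf4, Jun, Epha2, Cdkn1a, Id2 and Cdx2. Their values in the authors' deposited table were 1.79 ± 0.23, 1.47 ± 0.19, 1.40 ± 0.26, 1.28 ± 0.23, 0.81 ± 0.19 and 0.40 ± 0.09. Cdx2 is named here after its values were seen. Of these Klf4, Jun and Cdx2 were also called between the genotypes, higher in WT villus, at 1.07 ± 0.23, 1.33 ± 0.18 and 0.59 ± 0.09. Max, given above, was too. Ets2 was higher in labelled-DKO villus, at -0.76 ± 0.19.

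The genes closest to each member were found by the distance between pairs of log2 fold changes over the 2 deposited comparisons, leaving out genes whose signal was below the median of all genes. For Sp5 they were Ggt1 and Slc39a4, at distances of 0.14 and 0.14. Ggt1 had 1.38 ± 0.11 and 2.61 ± 0.12, and Slc39a4 1.23 ± 0.20 and 2.72 ± 0.21, in the authors' deposited tables. For Myc they were Ptma (0.06) and Rps18 (0.07), for Sox9 H4c12 (0.09) and Mlec (0.18), and for Axin2 Tomm70a (0.03) and Marveld2 (0.03). These distances are smaller than the standard errors of the members.

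The other 6 genes have positions but no comparison. Ephb2 and Ephb3 encode receptor tyrosine kinases for ephrin-B ligands, Lgr5 encodes a receptor for R-spondins, Olfm4 a secreted glycoprotein that marks stem cells, Slc12a2 a sodium, potassium and chloride cotransporter, and Cdk6 a kinase of the early cell cycle. Of 22466 gene symbols with a gene body window 28.4% were in the tables, against 4 of these 10. The longest gene body windows of the 4 genes in the tables ran from 1954 bp (Sp5) to 29583 bp (Axin2), and those of the 6 others from 17660 bp (Ephb3) to 189322 bp (Ephb2). Over all symbols the share in the tables was 35.2% among the 5618 with the shortest gene bodies (up to 6421 bp) and 17.3% among the 5617 with the longest (from 43432 bp). The gene filter behind the tables is not given in the sources used here.

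In the authors' mm9 coordinates the promoter window of Sp5 lay on chromosome 2 from 70312880 to 70313281 and its gene body window from 70313330 to 70315283. Sox9 and Axin2 lay on chromosome 11, with promoter windows from 112643424 to 112643825 and from 108781563 to 108781964. The 4 Myc transcripts shared 1 pair of windows on chromosome 15, with the promoter window from 61816796 to 61817197 and a gene body of 4171 bp. The promoter windows of the other genes were on chromosome 4 from 136391626 to 136392027 (Ephb2, 2 transcripts), 16 from 21204768 to 21205169 (Ephb3), 10 from 115024535 to 115024936 (Lgr5), 14 from 80400009 to 80400410 (Olfm4), 18 from 58038232 to 58038633 (Slc12a2) and 5 from 3343793 to 3344194 (Cdk6).

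The windows of Ephb2 and Lgr5, the 2 members on the minus strand, were laid out differently from the rest. At the 8 genes on the plus strand, 48 bases separated the promoter window from the gene body window. At Ephb2 and Lgr5 the gene body window, of 189322 and 138317 bp, contained the whole promoter window and ran 250 bases past its upstream edge. The same held for all 21190 minus-strand transcripts with both windows and for 0 of 19858 on the plus strand. A gene body count from these windows would include promoter signal at Ephb2 and Lgr5, and not at the other 8 genes.

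**Figure D4:**
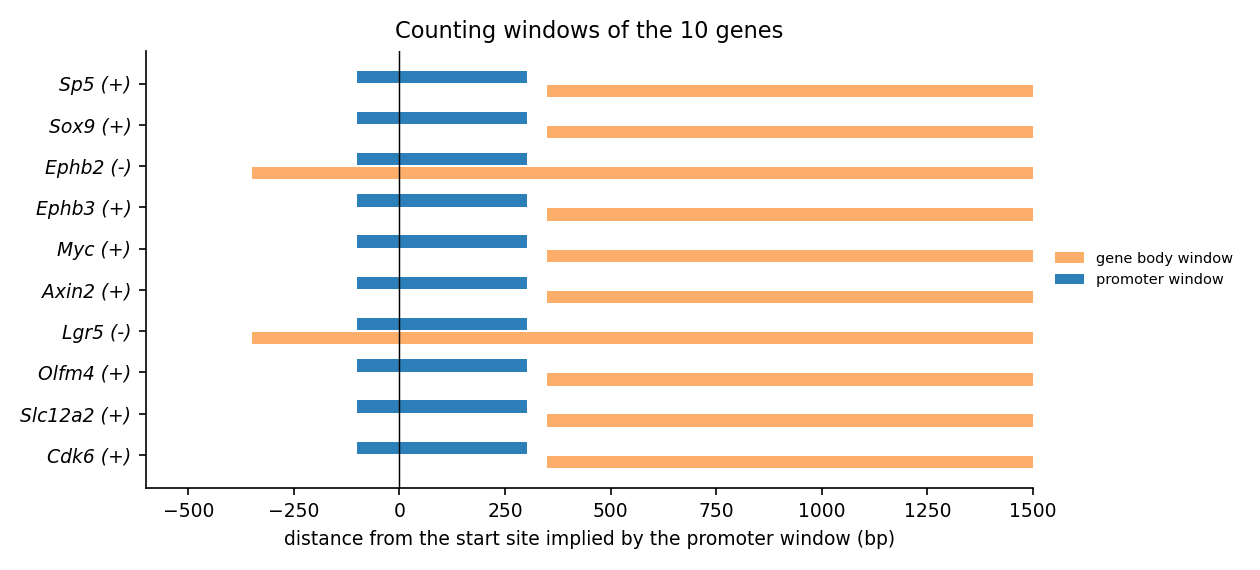
Promoter windows (blue) and gene body windows (orange, cut off at the right edge of the plot) of the 10 genes, by distance in bp from the start site implied by the promoter window, in the direction of transcription. At Ephb2 and Lgr5, on the minus strand, the orange bar begins upstream of the blue one, and at the other 8 genes it begins 48 bases after it ends.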

How the data were processed

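Libraries were Pol II ChIP-seq of duodenal epithelium, 3 per group by the labels. Per the submitters' processing notes, the authors used the mm9 build, Bowtie2 2.2.6 and DESeq2 1.36.0, with no role stated. Per the file headers, featureCounts 2.0.3 counted read pairs of mapping quality at least 30 over promoter and gene body windows, with no strand option. The 18 count columns carry no names, matched no sample and were not used, so the planned edgeR tests were not run and only window positions were read. The authors deposited, for 6429 genes and 2 comparisons, a mean signal, a log2 fold change with its standard error, a Wald score and a p-value, raw and adjusted by Benjamini-Hochberg over all 6429 genes. The authors' window, gene filter and any shrinkage are not given in the sources used here.

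Calls used an adjusted p under 0.05. Labelled-DKO villus over crypt is the difference of the log2 fold changes, with the root of the summed squared standard errors. It was given a normal test and Benjamini-Hochberg over all genes, in Python 3.11.15 with scipy 1.17.1. The code was also run on simulated data, with fewer changed genes than here and none between WT villus and crypt. That run does not show how the test performs at the shares called here. Nothing in the labels says whether libraries came from separate mice, so p-values measure the spread between these libraries, which may be technical. Members and lists were chosen with earlier results of these data known. Named are all 10 members, list genes called with a log2 fold change beyond 0.5 (at most 12 per list, the largest), and the 2 genes closest to each member. Transcripts were paired with symbols through the RefSeq table of GRCm38.p6, which held 6401 of the 6429 names.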

Additional observations from a re-analysis of the deposited data

How the results depend on the processing

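The alternatives were an adjusted p under 0.01, a log2 fold change over 1, a test against changes up to 0.5, centring on the median, a signal minimum of 100, overlapping genes left out, raised counting noise and, for labelled-DKO villus against crypt, a rebuilt standard error. Apart from centring, which reversed none of the 4 genes, they reuse the deposited fold changes, so they could change a call and not a direction. Sp5, Sox9 and Myc fall below the signal minimum and have no value there. Of the recomputed values for single genes or their promoters, 69 kept their side of the threshold, 10 became weaker and 1 stronger (Axin2 between the genotypes, at a signal minimum of 100). At an adjusted p under 0.01 the genes higher in crypt than WT villus numbered 2 in place of 3, because Axin2 no longer passed. With a log2 fold change over 1, and also against changes up to 0.5, the genes higher in crypt than WT villus numbered 1 (Myc) in place of 3, and those higher in labelled-DKO than WT villus 0 in place of 1. The genes higher in crypt than labelled-DKO villus numbered 1 (Sp5) and 0 in place of 2. These limits demand larger changes. The signal minimum leaves 1 of the 4 genes, Axin2, so it gave 1 gene higher in crypt than WT villus and 0 in the other direction, 0 higher in WT than labelled-DKO villus and 0 higher in crypt than labelled-DKO villus. The raised counting noise, chosen after seeing the data, sets the counting part of each standard error to that of 3 libraries; the deposited values hold 0.506 of it for crypt and 0.367 for labelled-DKO villus, and every call at the 4 genes was kept.

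No paired analysis was possible because these tables hold no values per library and the count columns carry no replicate numbers. Leaving out each library, DESeq2 against edgeR, and other filters on counts were not run for the same reason. Depth per library was not analysed. The mean signal of Sp5, Sox9 and Myc, 66.1 to 67.8, was below the median of 144.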
